A study of Rattus norvegicus with 10 samples.

Results

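The heterogeneous nuclear ribonucleoproteins (hnRNPs) and the serine- and arginine-rich (SR) splicing factors are RNA-binding proteins that coat newly made transcripts and decide which exons are kept. Their genes were followed here in RNA from plasma exosomes, small membrane vesicles shed by cells, of male Wistar rats. The members were all transcript clusters, the array's unit of measurement, whose single annotated gene symbol starts with Hnrnp or with Srsf and a digit, with the cluster of highest mean kept for each gene. This gave 43 members of 68842 clusters on the array: 21 hnRNP genes, 12 SR genes and 10 loci whose symbols mark them as pseudogenes of these genes. The symbols chose the genes, and of the measured values only the mean over all 10 arrays was used, to pick 1 cluster where a gene had several.

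The tested animals were 5 rats after remote ischemic conditioning (RIC), short bouts of ischemia and reperfusion in an organ or limb away from the one to be protected, here 4 cycles with 5 min of each. The other group was 5 healthy control rats of the same strain and sex, whose labels repeat the treatment text, which was taken to apply to RIC only. Plasma came from 10 mL of venous blood per animal, kept with EDTA, exosomes were pelleted by ultracentrifugation, and total RNA was labelled with biotin for an Affymetrix array. The labels give neither the body part made ischemic nor the time to blood sampling, and name no other treatment or allele. Values are log2 signal, and differences are RIC minus control on that scale.

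In the nucleus, SR proteins bind exon enhancers and recruit the splicing machinery, while many hnRNPs bind silencers and oppose them. Kinases of the SRPK and CLK families phosphorylate the arginine-serine repeats of SR proteins and so control where they sit and when they act. Some hnRNPs have a further role in vesicles. In human T cells, sumoylated HNRNPA2B1 binds a short GGAG motif in miRNAs and carries them into exosomes, and in mouse hepatocytes SYNCRIP, also called hnRNP Q, does so through a GGCU motif. The Y-box protein YBX1 has been shown to sort miRNAs into exosomes of human kidney-derived cells, HNRNPK has been linked to the loading of small RNAs by the LC3 conjugation machinery, and HNRNPU has been reported to hold a miRNA back in human endothelial cells. The array measured the RNA of these genes in the exosome preparations, not their proteins, so these roles are background. In such bulk samples, fewer vesicles from a cell type and less RNA per vesicle cannot be told apart.

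Signal was judged against 1447 clusters of odorant and pheromone receptor genes, whose median was 4.01 and whose 95th percentile was 4.38. Above that percentile lay 19 of 21 hnRNP genes, 11 of 12 SR genes and 8 of 10 pseudogenes. No member reached the array's highest value of 19.93. All 12 vesicle marker genes looked up were above the receptor percentile, among them Cd9 and Sdcbp at 19.93 in every sample. Of all 68842 clusters, 22545 were above it. Cells make these RNAs too, so the markers cannot tell vesicle RNA from RNA of cells left in the plasma. Platelet genes were also measured at high signal, with Pf4 and Tubb1 at 19.93 in every sample, although single genes such as Selp, at a mean of 4.88, were dim. Because probes differ in how strongly they bind, signal does not rank the members against one another. A locus and its near-identical copies may also share probes, so Hnrnpa1, Hnrnpc, Hnrnpf, Hnrnpk, Hnrnpm, Hnrnpr and Srsf7 and their pseudogenes are uncertain as separate measurements.

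No member passed the test of RIC against control. With limma and Benjamini-Hochberg adjustment over all 68842 clusters, 0 of 43 members had an adjusted p under 0.05, as did 0 clusters in all (0%), and the lowest adjusted p of a member was 0.328. An unadjusted p under 0.05 was found for 2 members, Srsf10 and Srsf2, both with lower signal in RIC, while 11.1% of all clusters reached that level in either direction and 3.17% on the lower side. None was called on the higher side, where 7.97% of all clusters were, and none had all RIC values above all controls, as 1.27% of all clusters did. As deposited, the members' share of 4.65% was thus below the 11.1% of both directions together, but above the 3.17% of the lower side. Under 4 other scalings 5 to 9 members reached that level (11.6% to 20.9%), against 9.18% to 12% of clusters. Differences ranged from -0.47 for Hnrnpab to 0.17 for Hnrnpk-ps7, with standard errors from 0.04 to 0.29.

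**Figure D1:**
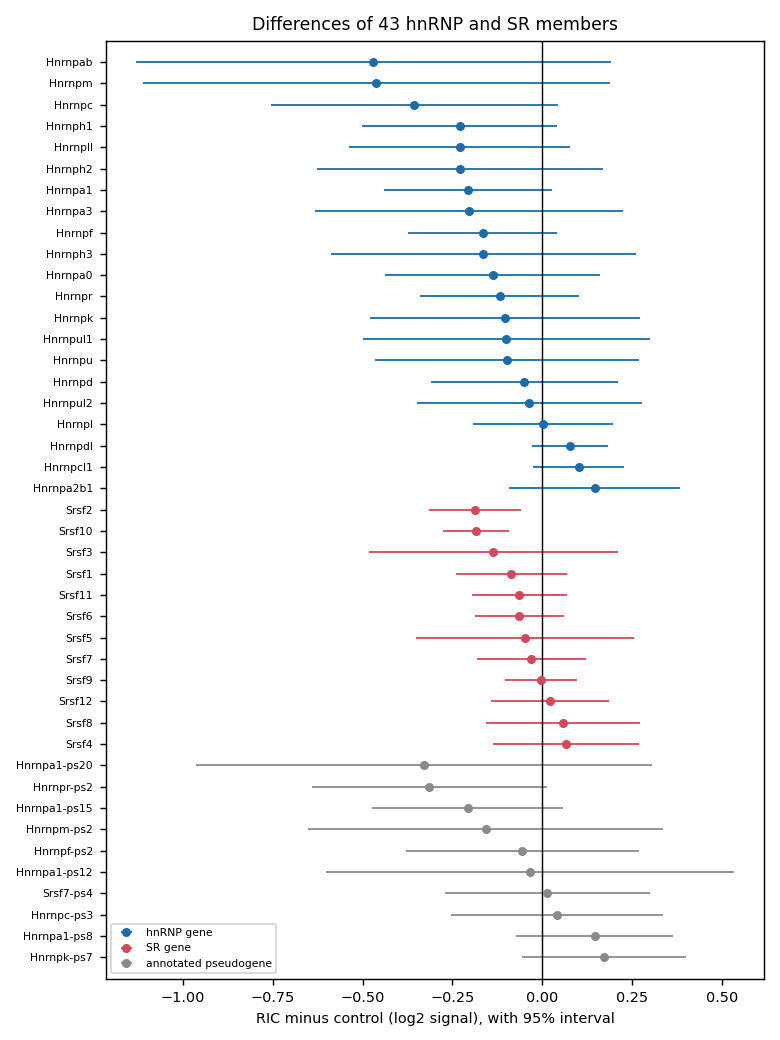
Difference between RIC and control (x axis, log2 signal) of each of the 43 members, with the 95% interval of the limma fit, unadjusted for the number of genes, grouped into hnRNP genes, SR genes and annotated pseudogenes. The intervals of Srsf10 and Srsf2 lie below 0 and those of the other members include 0.

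Among the SR genes, Srsf10 had the lowest p. It encodes a splicing factor that turns into a general splicing repressor when it loses its phosphates, as in heat-shocked human cells. Its signal was 4.72, 4.77, 4.77, 4.79 and 4.74 in RIC rats 1 to 5, against 4.84, 5.00, 4.96, 5.03 and 4.88 in control rats 1 to 5. All 5 RIC values lay below all 5 control values, a pattern shown by 1 of 43 members and by 0.471% of all clusters, and by 0.891% of varying clusters between the receptor percentile and 6. The means were 4.76 ± 0.03 in RIC and 4.94 ± 0.08 in control (SD, n = 5 each), a difference of -0.18 (SE 0.04, 95% interval -0.28 to -0.09, limma unadjusted p = 0.00131, adjusted p = 0.328). Both means were close to the receptor percentile of 4.38.

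Srsf2, which encodes the nuclear speckle protein SC35 that activates exons, followed. Its signal was 5.41, 5.26, 5.36, 5.47 and 5.34 in RIC, against 5.57, 5.63, 5.59, 5.61 and 5.38 in control. Control rat 5 stood apart from its group and fell inside the RIC range, while the other controls exceeded every RIC value. The difference was -0.19 (SE 0.06, 95% interval -0.32 to -0.06, limma unadjusted p = 0.00892, adjusted p = 0.376). Without control rat 5 it was -0.23, with limma adjusted p = 0.307, in a range of 0.307 to 0.717 over all alternatives run.

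The promoters of Srsf10 and Srsf2 are shown because these members had the lowest p. Each holds 300 bases around the gene start, most of them upstream, 5′ to 3′, from RefSeq on GRCr8, at chr5:153372066-153372365 on the plus strand for Srsf10 and chr10:102554092-102554391 on the minus strand for Srsf2. Capitals mark CCCGCC, the core of a GC box, and TCGCGA, a CG-rich palindrome, on either strand.
Srsf10: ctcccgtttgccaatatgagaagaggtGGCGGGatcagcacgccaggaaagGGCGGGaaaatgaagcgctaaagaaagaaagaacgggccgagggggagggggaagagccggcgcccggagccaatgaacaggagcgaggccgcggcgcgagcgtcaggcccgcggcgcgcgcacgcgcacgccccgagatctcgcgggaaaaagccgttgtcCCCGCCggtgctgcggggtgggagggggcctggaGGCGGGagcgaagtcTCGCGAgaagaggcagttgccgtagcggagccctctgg
Srsf2: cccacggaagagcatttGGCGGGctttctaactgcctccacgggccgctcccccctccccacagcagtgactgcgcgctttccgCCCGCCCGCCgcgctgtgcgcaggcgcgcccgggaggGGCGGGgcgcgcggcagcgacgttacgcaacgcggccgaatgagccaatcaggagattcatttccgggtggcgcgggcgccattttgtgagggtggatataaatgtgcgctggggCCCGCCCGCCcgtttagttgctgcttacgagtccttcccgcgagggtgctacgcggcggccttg
The Srsf10 window held 4 matches to CCCGCC and 1 to TCGCGA, and the Srsf2 window 6 and 0, of which some overlap. A promoter was given for 31 of 43 members. CCCGCC occurred in 25 of these 31 (80.6%), against 33.8% of 27457 promoters of the same length. TCGCGA occurred in 3 of 31, those of Srsf4, Srsf10 and Hnrnpu, against 2.51% of all. A further motif, GGAAGTG, the core bound by ETS factors, was found in 6 of 31 (19.4%) against 10.1%. These are matches of letters and say nothing of binding, and all 31 genes count once whether or not their RNA differed.

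The remaining 10 SR genes had intervals that included 0. Srsf3, whose protein also helps export mRNA from the nucleus, had 6.26, 6.20, 5.97, 6.17 and 5.88 in RIC against 5.83, 6.71, 6.33, 6.22 and 6.07 in control. The groups overlapped almost wholly, since the lowest and the highest value were both controls. Srsf1, the founding member of the family, measured 5.08 ± 0.05 in RIC and 5.16 ± 0.15 in control (difference -0.09, SE 0.07). Srsf11 and Srsf6 differed by -0.06 each, Srsf5 by -0.05 and Srsf7, a further export adaptor, by -0.03. Srsf9 had -0.004, Srsf12 0.02, Srsf8 0.06 and Srsf4 0.07. In count, 9 of 12 SR genes had a negative difference (median -0.06), with a largest standard error of 0.15. The intervals were narrow for several of them, for instance from -0.10 to 0.10 for Srsf9. Its mean of 4.39 was, however, at the receptor percentile of 4.38, and that of Srsf8, 4.30, was below it.

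**Figure D2:**
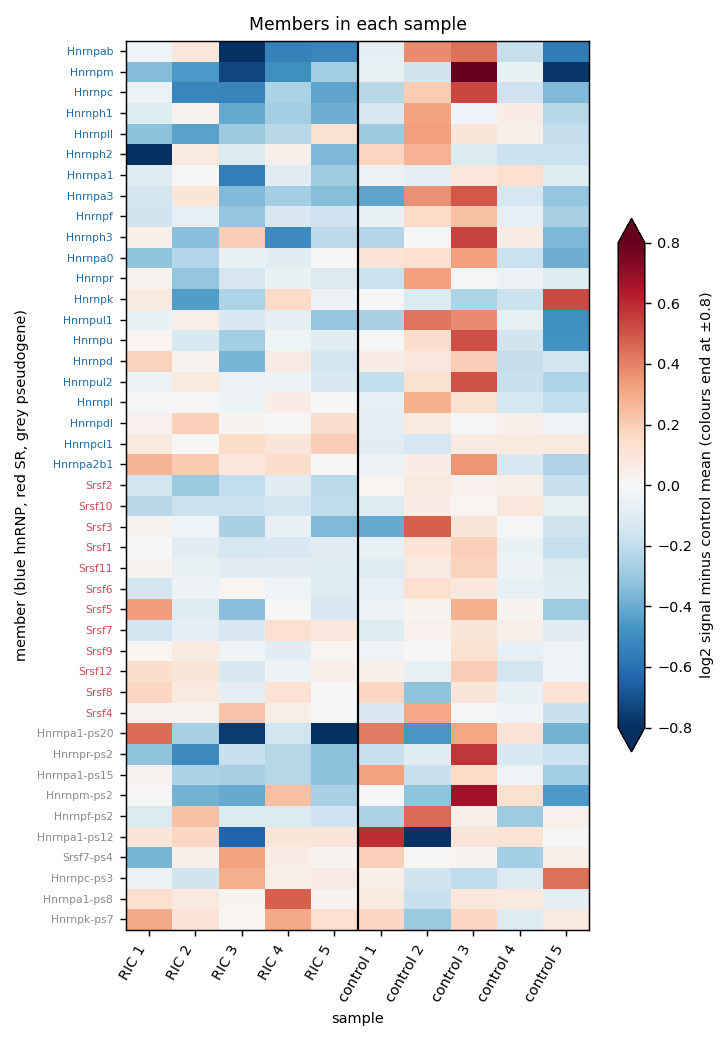
Each member (rows, named in blue for hnRNP, red for SR and grey for pseudogenes) in each sample (columns, RIC left of control), as log2 signal minus the mean of the 5 controls, with colours ending at ±0.8. Control 3 has the highest value of 17 members and control 5 the lowest of 11, and the median deviation of the controls, from -0.17 to 0.12, encloses that of the RIC rats.

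Among the hnRNP genes, the largest differences belonged to members whose signal varied widely between rats. Hnrnpab, which encodes a protein of RNA transport granules, had 9.43, 9.55, 8.12, 8.92 and 8.94 in RIC, against 9.39, 9.84, 9.90, 9.28 and 8.90 in control. RIC rat 3 was the lowest of all, and the groups overlapped. The difference was -0.47 (SE 0.29, 95% interval -1.13 to 0.19), and -0.25 without RIC rat 3. Hnrnpm, a splicing regulator, had 8.07, 7.96, 7.69, 7.93 and 8.14 in RIC, against 8.36, 8.26, 9.48, 8.36 and 7.64 in control. Both the highest and the lowest value were controls, and the difference was -0.46 (SE 0.29), and -0.20 without control rat 3. Hnrnpc, whose protein binds uridine tracts, had 7.31, 6.83, 6.82, 7.10 and 6.93 in RIC, against 7.13, 7.56, 7.89, 7.19 and 7.00 in control. Of the RIC values, 3 lay below the lowest control, and the difference was -0.36 (SE 0.18, limma unadjusted p = 0.0741, adjusted p = 0.480), and -0.22 without control rat 3.

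Hnrnph1, Hnrnph2 and Hnrnpll each differed by -0.23. Hnrnph1, which encodes a protein that binds runs of guanines, had 6.04, 6.17, 5.73, 5.86 and 5.75 in RIC, against 6.01, 6.46, 6.12, 6.20 and 5.91 in control, with 3 RIC rats below every control, and differed by -0.15 without control rat 2. Hnrnpll, a regulator of Ptprc splicing in lymphocytes, had 5.51, 5.41, 5.55, 5.62 and 5.96 in RIC against 5.55, 6.17, 5.94, 5.89 and 5.65 in control. RIC rat 5 reached the upper controls, so the groups overlapped. In Hnrnph2, RIC rat 1 at 6.77 was the lowest sample and the other RIC rats, from 7.21 to 7.65, lay within or near the control range of 7.40 to 7.85.

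Of the members with a known part in vesicle loading, none differed beyond its spread. Hnrnpa2b1 had 5.96, 5.90, 5.78, 5.83 and 5.70 in RIC, against 5.64, 5.75, 6.04, 5.56 and 5.45 in control. It was one of 4 hnRNP genes with a positive difference, and control rat 3 was the highest sample. The means were 5.83 ± 0.10 in RIC and 5.69 ± 0.23 in control (difference 0.15, SE 0.11, 95% interval -0.09 to 0.38, limma unadjusted p = 0.198, adjusted p = 0.602). Under 21 other ways of processing the difference stayed positive, from 0.06 to 0.27, and the unadjusted p was under 0.05 in 3 of them, with limma adjusted p from 0.431 to 0.837.

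Hnrnpa1, which shuttles with mRNA between nucleus and cytoplasm and has been tied to miRNA export in human fibroblasts, had 12.60, 12.69, 12.14, 12.61 and 12.41 in RIC. Controls had 12.65, 12.62, 12.78, 12.83 and 12.60. RIC rats 3 and 5 were lower than all controls, RIC rats 2 and 4 were inside their range and RIC rat 1 equalled the lowest control. The difference was -0.21 (SE 0.10, 95% interval -0.44 to 0.03), and it turned to 0.16 when the deposited values were quantile normalized. Its 4 annotated pseudogenes did not share one direction, with -0.33 for Hnrnpa1-ps20, -0.21 for Hnrnpa1-ps15, -0.03 for Hnrnpa1-ps12 and 0.15 for Hnrnpa1-ps8. Hnrnpu, a scaffold of nuclear RNA and chromatin, had 6.75, 6.61, 6.46, 6.70 and 6.65 in RIC against 6.72, 6.87, 7.25, 6.57 and 6.25 in control. The controls spanned the whole RIC range. The difference of -0.10 (SE 0.16) turned positive with the level-dependent trend removed, after quantile normalization and, at 0.03, without control rat 3.

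For Hnrnpk the chosen cluster is doubtful. Its ID carries the number of chromosome 2, while RefSeq places the gene on chromosome 17, and its mean of 4.13 was below the receptor percentile. It had 4.25, 3.73, 3.93, 4.34 and 4.13 in RIC, against 4.18, 4.07, 3.93, 4.01 and 4.71 in control, values that spread as background does. A further cluster on chromosome 17 is annotated with both Hnrnpk and Mir7-1 and so was no member. That cluster measured 7.90 in RIC and 8.08 in control, a difference of -0.18 (SE 0.08, limma unadjusted p = 0.0589). For Hnrnpa3, a cluster with a second symbol differed by -0.30 (SE 0.17), beside -0.20 (SE 0.19) for the member. With clusters of several symbols allowed, a choice made after seeing the data, 32 of 43 members were again lower and 2 had an unadjusted p under 0.05.

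**Figure D3:**
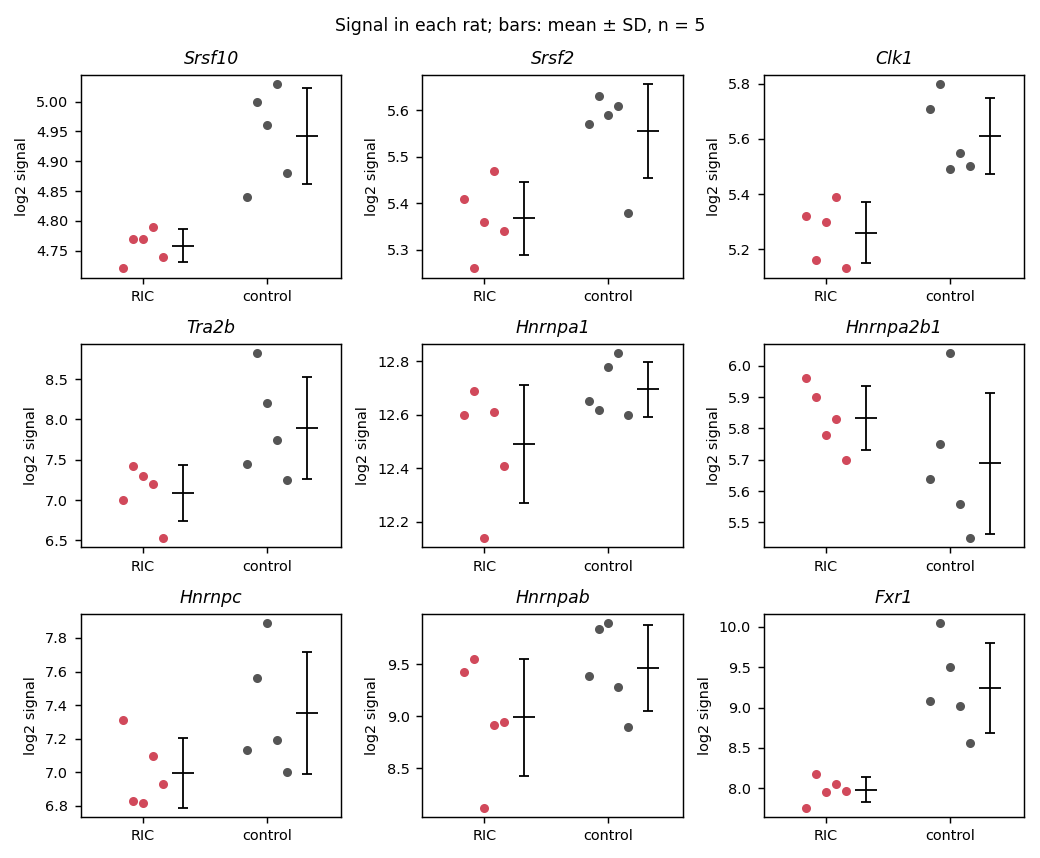
Log2 signal of each rat (points, RIC left in red, control right in grey) for 6 members (Srsf10, Srsf2, Hnrnpa1, Hnrnpa2b1, Hnrnpc and Hnrnpab) and the partner genes Clk1, Tra2b and Fxr1; bars are the mean ± SD of 5 rats, and each panel has its own axis. Groups do not overlap for Srsf10, Clk1 and Fxr1 and overlap in the other panels.

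The remaining hnRNP genes were closer to 0. Hnrnpa3 differed by -0.20, Hnrnpf by -0.17, Hnrnph3 by -0.16, Hnrnpa0 by -0.14 and Hnrnpr by -0.12. Hnrnpul1 had -0.10, Hnrnpd, the AU-rich element binding protein AUF1, -0.05, and Hnrnpul2 -0.04. Hnrnpl, whose protein binds CA repeats, had 0.002 (95% interval -0.19 to 0.20), Hnrnpdl 0.08 and Hnrnpcl1 0.10. Hnrnpcl1, a relative of Hnrnpc, had 4.13, 4.05, 4.20, 4.15 and 4.25 in RIC against 3.97, 3.92, 4.12, 4.13 and 4.13 in control, all below the receptor percentile. Genes with a further cluster of the same symbol had the same sign in both clusters for Hnrnpab (-0.26), Hnrnph3 (-0.27) and Hnrnpdl (0.15). For Srsf8 the further cluster differed by -0.05, with the opposite sign.

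As a group, 17 of 21 hnRNP genes had lower signal in RIC (median -0.14), and 6 of 10 pseudogenes, with a median of -0.05. The 2 pseudogenes with the largest negative differences were Hnrnpa1-ps20 and Hnrnpr-ps2. Hnrnpa1-ps20 had 9.20, 8.49, 7.99, 8.60 and 7.85 in RIC against 9.17, 8.29, 9.07, 8.87 and 8.38 in control, and RIC rat 1 was the highest sample of all. Its difference was -0.52 without RIC rat 1 and -0.19 without RIC rat 5. Hnrnpr-ps2 had 5.21, 5.02, 5.35, 5.30 and 5.20 in RIC against 5.35, 5.43, 6.10, 5.41 and 5.36 in control, where rat 3 stood far above the others. Hnrnpk-ps7, at the other end, had 4.76, 4.56, 4.47, 4.76 and 4.59 in RIC against 4.62, 4.16, 4.62, 4.35 and 4.53 in control, close to the receptor percentile. Hnrnpa1-ps8 had 4.87, 4.82, 4.76, 5.22 and 4.76 in RIC against 4.82, 4.56, 4.83, 4.82 and 4.67 in control, where RIC rats 1 and 4 lay above all controls, control rats 2 and 5 below all RIC rats, and the others overlapped. Over all 43 members, 32 were lower in RIC (74.4%), against 37.4% of all clusters, and the median difference was -0.10, against 0.03 over all clusters.

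That count has to be read against signal level, because most brighter clusters were lower in RIC as deposited. Of 5809 varying clusters at a mean signal between 6 and 18, 77.9% had a negative difference, and their median was -0.22. That background moved with the scaling: 84.2% were lower after centring on the array median and 85.6% on the receptors. With the trend removed 61.6% (median -0.10) were lower, but 46.4% (median 0.03) after quantile normalization. Bright erythroid genes went both ways as deposited, for instance Car1, a carbonic anhydrase of red cells, with 1.54. Rhag had -1.31 and Fech -0.28. The 16 members in that range were all lower, with a median of -0.21, which is the size seen at that level, and none of the 16 reached an unadjusted p under 0.05 on the lower side, against 13.6% of those clusters. Nor did any of the 16 have all RIC values below all controls, as 2.07% of those clusters did. Between the receptor percentile and 6, 15 of 22 members were lower (median -0.05), against 53.3% of 14925 varying clusters (median -0.01). At or under the percentile, 1 of 5 members was lower, against 27.9% of clusters.

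**Figure D4:**
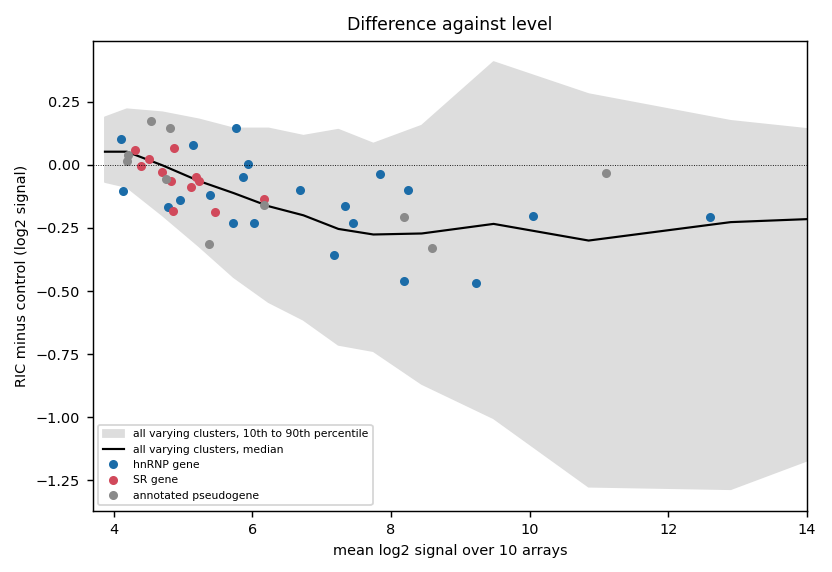
Difference between RIC and control (y axis, log2 signal) against mean log2 signal over the 10 arrays (x axis); the line and the grey area are the median and the 10th to 90th percentile of all varying clusters in bins of level. Members scatter around the median line, which is 0.05 between 4 and 4.5, -0.28 between 7.5 and 8 and lowest, at -0.30, between 10 and 12.

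The count also followed the scaling of the arrays. It was 32 of 43 lower as deposited, 37 with the median of each array set equal and 39 after centring on the receptors. With each array's level-dependent trend removed it was 30, and 24 after quantile normalization of the deposited values. The median difference was -0.16, -0.18, -0.04 and -0.01 under these alternatives, beside -0.10 as deposited. Over all clusters at an unadjusted p under 0.05, the share with a positive difference was 71.6% as deposited and 26.8%, 15.6%, 46.5% and 49.1% under the same alternatives. The difference of Srsf10 lay between -0.27 and -0.16 under all 21 other ways of processing, and its unadjusted p was under 0.05 in all 21, while limma adjusted p ranged from 0.313 to 0.686. Srsf2 lay between -0.27 and -0.10, with an unadjusted p under 0.05 in 20 of 21. The exception was the fit without control rats 1 and 2.

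**Figure D5:**
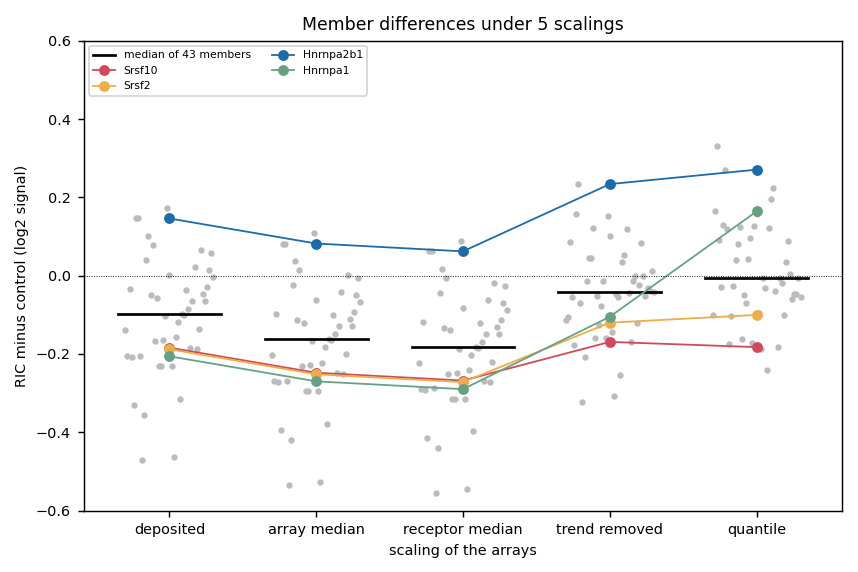
Differences between RIC and control (y axis, log2 signal) of the 43 members (grey points, in alphabetical order within each column) under the deposited values and 4 other scalings, with their median (black bar) and lines for Srsf10, Srsf2, Hnrnpa2b1 and Hnrnpa1. The median moves between -0.18 and -0.01, Srsf10 and Srsf2 stay below 0, Hnrnpa2b1 stays above 0 and Hnrnpa1 crosses 0.

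Single rats weighed on the group as well. Control rat 3 had the highest value of 17 members and control rat 2 of 11, whereas control rat 5 had the lowest of 11, and RIC rat 3 the lowest of 7. Taken over members, the median deviation from the control mean was 0.12 in control rat 3 and -0.17 in control rat 5, which encloses the range of the RIC rats, from -0.13 to -0.002. The median member difference was -0.03 without control rat 3 and -0.05 without control rat 2. In control rat 2 the median of the 6 to 18 clusters was 8.33, the highest of the 10 arrays, while the RIC rats lay between 7.46 and 7.84 and the other controls between 7.74 and 7.97. The part of that brightness in the members' differences was not tested.

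Genes that work with SR proteins were given for context as a list of 21, of which 20 were measured. Of these, 16 had lower signal in RIC and 4 higher (median -0.11), and 0 passed over all clusters. As deposited, 37.4% of all clusters were lower. At like level the share was 53.3% of varying clusters between the receptor percentile and 6, and 77.9% between 6 and 18. Clk1, a kinase that phosphorylates SR proteins, had 5.32, 5.16, 5.30, 5.39 and 5.13 in RIC against 5.71, 5.80, 5.49, 5.55 and 5.50 in control. All RIC values were below all controls, as in 0.471% of all clusters (difference -0.35, SE 0.08, limma unadjusted p = 0.00128, adjusted p = 0.328). Tra2b, an SR-like activator of exons, had 7.00, 7.42, 7.30, 7.20 and 6.53 in RIC, against 7.45, 8.82, 8.20, 7.74 and 7.25 in control. The groups met at one control, rat 5, and the difference was -0.80 (SE 0.30, limma adjusted p = 0.411). Srrm4 and Srrm3, related splicing factors known from neurons, had the positive differences of lowest p, 0.10 and 0.06. Of the named genes of this list, Clk1, Tra2b and Srrm4 kept their sign under all 4 other scalings. Srrm4, however, had a mean of 3.96, below the receptor percentile of 4.38. Its difference fell as low as 0.02 under these scalings, and the receptors' own median difference was 0.09 as deposited.

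Of hnRNP genes that carry other symbols, 13 were listed and 12 measured, with 9 of these 12 lower and a median difference of -0.09. That count too stands beside 37.4% of all clusters, 53.3% of varying clusters between the receptor percentile and 6, and 77.9% between 6 and 18. Rbmx, or hnRNP G, measured 4.62 ± 0.08 in RIC and 4.84 ± 0.17 in control, and Pcbp3, a poly(C)-binding protein, 4.50 ± 0.07 in RIC and 4.59 ± 0.02 in control. Pcbp1 and Ralyl were on the positive side, with 0.18 and 0.07. None passed. Core spliceosome genes were balanced, with 22 lower and 21 higher of 43 measured and a median of -0.004. There Snrnp40, of the U5 particle, had 5.09 ± 0.08 in RIC and 5.34 ± 0.21 in control without overlap. All RIC values lay below all controls in 0.471% of all clusters. Prpf3 differed by -0.08. Snrpg, an Sm ring protein, had 4.56 ± 0.06 in RIC and 4.41 ± 0.09 in control, and Snrpd3 differed by 0.24.

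Of 22 genes listed for loading or binding RNA in vesicles, 20 were measured, with 11 lower, 8 higher and a median difference of -0.03. Fxr1, a relative of the fragile X protein that binds mRNA and miRNA complexes, had 7.76, 8.18, 7.95, 8.05 and 7.97 in RIC against 9.08, 10.05, 9.50, 9.02 and 8.56 in control. No value overlapped (difference -1.26, SE 0.24, limma unadjusted p = 0.000566, adjusted p = 0.313). Ago1, an Argonaute protein that holds miRNAs, lay the other way, with 5.15, 5.03, 4.97, 5.03 and 4.91 in RIC against 4.71, 4.75, 4.84, 4.78 and 4.77 in control (difference 0.25, SE 0.05, limma adjusted p = 0.313). Here too no value overlapped. All RIC values lay below all controls in 2.07% of varying clusters between 6 and 18, where Fxr1 lies. They lay above all controls in 1.27% of all clusters. Both genes kept their sign under all 4 other scalings, but they were named for their low p and neither passed.

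Syncrip measured 6.12 ± 0.09 in RIC and 6.36 ± 0.41 in control, where rat 3 was highest at 7.02. Ybx1 was at 18.62 on all 10 arrays and could show no difference. Elavl1, an mRNA-stabilising protein, differed by -0.10, Ssb, the La protein, by -0.06, and nucleolin (Ncl) by -0.25, each within its spread, and the signs of Ssb and Ncl turned under at least 1 other scaling. Igf2bp3 had 0.11 and Fmr1 -0.21. For the pairs that act through known motifs, neither Hnrnpa2b1 nor Syncrip thus differed beyond the spread between rats.

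The motifs bound by these proteins were looked up in rat miRNAs, since they link the members to vesicle cargo. The array measured miRNA genes, primary transcripts included, and not mature miRNAs. Of 382 such genes on the array, 356 were matched to 595 mature sequences from RefSeq, of which 47 held GGAG and 55 held GGCU. The GGAG carriers with the brightest gene clusters are printed with that motif in capitals, and their coordinates are on GRCr8.
rno-miR-1843b-5p: auGGAGgucucugucugacuuag
rno-miR-298-5p: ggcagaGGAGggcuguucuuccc
rno-miR-139-3p: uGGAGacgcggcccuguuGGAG
rno-miR-764-3p: gaGGAGgccauaguggcaacugu
They lie at chr13:74085003-74085025, chr3:183470571-183470593, chr1:165290901-165290922 and chrX:115490702-115490724, and miR-139-3p holds the motif at both ends. The gene of miR-298 also carries GGCU in the same arm.

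Their gene clusters did not pass the test. Mir1843b had 6.53, 6.99, 7.14, 6.15 and 7.42 in RIC against 6.35, 5.57, 6.85, 6.45 and 5.95 in control (difference 0.61, SE 0.30, limma adjusted p = 0.474), with 3 RIC rats above every control. Mir298 had 6.22, 5.70, 6.09, 6.62 and 6.51 in RIC against 6.21, 4.99, 5.34, 6.25 and 5.59 in control (difference 0.55, SE 0.28). Mir139 differed by 0.62, with RIC rat 5 highest at 7.48, and Mir764 by 0.01. Of 47 miRNA genes with GGAG, 33 were higher in RIC (70.2%), with a median difference of 0.07. Of 309 without it, 201 were higher (65%), with a median of 0.05. Genes with GGCU had 34 of 51 higher (66.7%), against 200 of 305 without it (65.6%). Most clusters were higher as deposited, 41272 of all 68842, and so were 1106 of the 1447 receptor clusters, with a median difference of 0.09. Only 89 of the 356 miRNA genes lay above the receptor percentile. Restricted to these, 13 of 17 with GGAG and 42 of 72 without were higher. None of the 356 had a limma adjusted p under 0.05, and these counts carry no test.

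Cells that shed vesicles into plasma were tracked by marker genes, and their part in the members' values was not tested. Of 22 platelet genes, 17 varied between samples, with 16 lower and 1 higher in RIC. The per-sample median of the list was 16.14 to 18.07 in RIC and 17.26 to 18.09 in control. For 13 endothelial genes, 12 were lower, with 5.59 to 6.59 in RIC and 6.04 to 7.41 in control. Pecam1 and Vwf, both lower, were counted in the platelet list as well, so these lists are not separate. Of 19 erythroid genes, 16 varied, with 11 higher and 5 lower, and medians of 7.49 to 8.86 in RIC and 6.99 to 7.63 in control. RIC rat 4 was the highest sample for many of them, such as Ahsp, with 12.36 against 8.77 to 10.00 in the other RIC rats. It was not for all, since Car1 was highest in RIC rat 1 and Rhag in control rat 5. Neutrophil, monocyte and lymphocyte lists had 6 of 14, 6 of 12 and 4 of 15 genes lower, with medians from 4.47 to 4.96 in RIC and 4.36 to 5.09 in control. Of 12 vesicle markers, 9 varied and 8 were lower, with Cd81 at 5.57 ± 0.22 in RIC and 6.04 ± 0.25 in control. As deposited, 77.9% of all varying clusters between 6 and 18 were lower too. No gene of these lists passed over all clusters.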

How the data were processed

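Log2 values of each transcript cluster in each animal were deposited by the authors as a single table. Affymetrix Expression Console is the tool that the submitters' processing notes name. How it summarised and normalized the arrays, and on which genome build, are details not given in the sources used here, and the array's cluster coordinates were not used. Deposited log2 values ran from 2.71 to 19.93.

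Symbols came from the platform annotation, with 23446 clusters carrying 1 symbol, and gene numbers were matched to RefSeq (GRCr8). All 68842 clusters were fitted as RIC minus control, 5 rats against 5, by limma (version 3.58.1, R 4.3.3; lmFit, then eBayes), without filter or covariate, and p-values were adjusted by Benjamini-Hochberg over all clusters at a threshold of 0.05. The fit was tested on simulated data. The 21 alternatives were other scalings (loess span 0.3 for the level-dependent trend), filters, variance models, left-out rats, a replicate block and other clusters per gene. Members and lists were chosen with earlier results of these data known. Every member could be named. Values per rat are given for members with the largest differences of either sign, those linked to vesicle loading and those without overlap, and for Srsf2 and Srsf3, chosen after their values were seen. Of other lists, the genes of lowest p in each direction are named, some by mean and SD. Each sample came from its own rat, and p-values reflect the variation among these animals. With arrays, their number limits the precision. Protein features of the members were planned and not analysed here.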

Additional observations from a re-analysis of the deposited data

Results flagged for a closer look

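Among 86 groups of 5 values (43 members in RIC and in control), 7 held a sample far from the others, by the ratio of its gap to the nearest value over the group's range, with Dixon's critical value of 0.71. Chance flags about 1 group in 20. Of these, 5 were in RIC. Hnrnpa1-ps12 in RIC rat 3 was low at 10.48 (nearest 11.21), while Hnrnpa1-ps15 in RIC rat 1 was high at 8.32 (nearest 8.06). Hnrnpa1-ps8 in RIC rat 4 was high at 5.22 (nearest 4.87), Hnrnpf-ps2 in RIC rat 2 at 5.02 (nearest 4.67) and Srsf4 in RIC rat 3 at 5.07 (nearest 4.89). In control, Hnrnpr-ps2 was high in rat 3 at 6.10 (nearest 5.43) and Srsf2 was low in rat 5 at 5.38 (nearest 5.57). Pseudogenes made up 5 of the 7, beside 10 of the 43 members, and 7 flags are too few to compare the classes.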

How the results depend on the processing

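No member passed the adjusted threshold under any of the 21 alternatives, and no cluster under any of those fitted to all clusters (the mean over a gene's clusters was run for members only). As deposited, 2 members reached an unadjusted p under 0.05 (4.65% of members, 11.1% of all clusters). That count was 6 after centring on the array median (14%, against 9.76% of clusters) and 9 on the receptors (20.9%, against 12%). It was 5 with the level-dependent trend removed (11.6%, against 9.18%) and 5 after quantile normalization of the deposited values (11.6%, against 9.85%). Without control rats 1 and 2 it was 1 (2.33%, against 6.90%). With both directions counted together, the members' share was thus above that of all clusters under these 4 scalings and below it as deposited. Leaving out 1 rat gave 2 to 7 members, beside 8.47% to 11.8% of clusters, with 7 without control rat 5 (16.3%, against 11.7%) and 4 each without RIC rat 2 (9.30%, against 10.8%) and without control rat 3 (9.30%, against 9.51%). Over all clusters the count, 7665, was 2393 above the receptor percentile and 3721 above the median of all clusters, where fewer clusters were tested, and 4750 without control rats 1 and 2, where fewer samples were. Groups share replicate numbers, but deviations of same-numbered rats correlated at only -0.106 to 0.174 over 5809 clusters. Of the RIC rats, 1 of 5 correlated best with its own number. The main fit therefore used no pairing, though this check cannot show whether same-numbered samples were processed together. With a replicate block, 6 members (14%) and 11% of clusters reached an unadjusted p under 0.05. Quantile normalization of the deposited values turned the sign of 16 of 43 members, the largest number of any alternative. The cause was not tested. Leaving out pseudogenes, chosen after seeing the data, left 26 of 33 members lower with a median of -0.10. Signal near the receptor level limits what the 5 dimmest members can show.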
